A study of Mus musculus with 6 samples.

Results

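The genes described here are the fibroblast growth factor (FGF) system of the mouse lung: the FGF binding proteins Fgfbp1 and Fgfbp3, the ligands Fgf1, Fgf2, Fgf7, Fgf10 and Fgf18, and the receptors Fgfr1, Fgfr2 and Fgfr3. They are 10 of 49568 genes in the deposited table, chosen by family name, with Fgfbp3 singled out because its level had differed between the genotypes in earlier results of these data. Values of Col6a1-/- against wildtype are therefore given for these 10 genes as a description and without a test. The right lobes of perfused lungs gave the RNA; the mice were untreated, aged 6 weeks, Col6a1-/- or wildtype, and all labelled C57BL/6. Each of the 6 libraries (3 per genotype) was made from the pooled RNA of 2 animals, no animal entered more than 1 pool, and 12 animals were used in all. The sources used here do not give how the Col6a1 gene was disrupted, and 49.5% of the wildtype level of its RNA remained in Col6a1-/- lungs. Values of the pools are given in the order of replicates 1, 2 and 3.

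FGFs are secreted proteins that bind receptor tyrosine kinases on neighbouring cells, with heparan sulfate chains of the cell surface and matrix as a cofactor. The ligand bound to its receptor starts the Ras and MAP kinase cascade through adaptor proteins, and Sprouty and Spred proteins damp the signal. In the lung, Fgf10 from the mesenchyme acts on epithelial Fgfr2 and drives branching of the airways, and Fgf7, the keratinocyte growth factor, acts on the same receptor. FGF binding proteins are secreted carriers that take FGFs off the heparan sulfate of the matrix. Collagen VI, of which Col6a1 encodes a chain, is itself a component of the matrix.

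The libraries held 28055414 to 37904878 reads in genes. Mitochondrial genes took 1.18% and 1.09% of them in wildtype replicates 1 and 2 and 1.88% to 2.29% in the other 4 libraries. Whole lung RNA mixes many cell types, so that fewer cells of a type and less RNA per cell cannot be told apart here. Every marker fixed for alveolar type 1 and type 2 cells, airway epithelium, endothelium, fibroblasts, smooth muscle, mesothelium and leukocytes was above a mean of 10 normalized counts. Markers of cartilage and oesophagus (5 of 6) and of thymus (5 of 6) had means under 10. The pools differed in sex: the male share, read from 4 Y-linked genes, was 0.347%, 3.35% and 51.5% for the wildtype pools and 72.5%, 100% and 51.1% for the Col6a1-/- pools, of which replicate 2 served as the reference. Sex and genotype were thus partly confounded. A fit with the male share as a covariate cannot fully tell them apart, and its values below are imprecise. Summed markers of red cells (62326 to 102813 against 41944 to 48044 normalized counts), fat tissue (7901 to 12942.5 against 2725 to 6709.8) and cardiac muscle (22584 to 24481 against 16603 to 22317) were higher in every Col6a1-/- pool than in every wildtype pool. All 8 genes of each of these 3 lists had higher estimates, and none passed the adjusted threshold. Airway epithelium sums also lay higher (723159 to 910825 against 552186 to 698641), with 6 of 7 higher estimates and none past the threshold. Most of each sum was Scgb1a1 (609794 to 776432 against 453856 to 591784). In the same list, Foxj1 and Ccdc39 overlapped between genotypes, and Muc5b, also overlapping, stood at 72.3% of wildtype. Summed endothelial markers were lower in every Col6a1-/- pool (143122 to 149396 against 166594 to 181368), with 7 of 8 lower estimates and 1 called gene, Vwf (63.2% of wildtype, limma adjusted p 0.0468). Alveolar type 2 cells, smooth muscle and leukocytes also had 7 of 8 lower estimates. Their median log2 fold changes were -0.15, -0.20 and -0.30, against -0.19 for endothelium. Mesothelium had 7 of 7 higher estimates. The sums of these 4 lists overlapped between genotypes, and none of their genes was called. The part of these cell types in the values below was not tested.

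The sequence upstream of the transcription start is shown for Fgfbp3 and Fgf7, the members whose pools separated by genotype. Both stretches come from RefSeq's promoter windows on GRCm38.p6 and read 5′ to 3′ on the gene's strand up to its most upstream annotated start. The Fgfbp3 stretch is chr19:36919616-36919849 on the minus strand, and the Fgf7 stretch is chr2:126034408-126034657 on the plus strand. Capitals mark matches on either strand to core promoter motifs. The TATA box was searched as TATAAA. For the CCAAT box the search used the letters of its name. Searching for the GC box used GGGCGG.
Fgfbp3: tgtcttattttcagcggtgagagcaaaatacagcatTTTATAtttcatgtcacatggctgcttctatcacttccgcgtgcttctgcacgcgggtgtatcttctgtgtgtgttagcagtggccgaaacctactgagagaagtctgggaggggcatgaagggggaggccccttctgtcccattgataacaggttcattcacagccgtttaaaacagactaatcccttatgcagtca
Fgf7: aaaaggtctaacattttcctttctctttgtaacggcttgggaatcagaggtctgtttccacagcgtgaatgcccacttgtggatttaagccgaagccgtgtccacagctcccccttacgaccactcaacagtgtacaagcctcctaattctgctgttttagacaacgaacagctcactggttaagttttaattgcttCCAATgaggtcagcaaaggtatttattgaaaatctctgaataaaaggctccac
The Fgfbp3 stretch of 234 bases held 1 match, to the TATA box on the opposite strand (read here as the reverse complement TTTATA), 7 CpG dinucleotides and 47.4% G and C. The Fgf7 stretch of 250 bases held 1 match, to the CCAAT box, 6 CpG dinucleotides and 43.6% G and C. Over 32851 promoter windows of 250 bases, 12.4% held the TATA box, 33.8% the CCAAT box and 32.7% the GC box, and the median G and C content was 52.4%. The 16 bases between the Fgfbp3 starts of RefSeq and of GENCODE, which hold a CCAAT match, are not printed. These are letter matches, and nothing was measured at them.

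Windows are described for 8 of the 10 members, and they differed widely in composition. The Fgf18 window had 77.2% G and C and 37 CpG dinucleotides, above 97.4% of the 32851 windows used for G and C. The Fgf2 window had 62.4% and 20 CpG dinucleotides, and the Fgf10 window 61.2% and 8. The pair of Fgfr3 windows had 66.8% and 72.8%, with 19 and 24. Fgf7 (43.6%), Fgfr2 (44.0%) and Fgfbp3 (47.2%) lay below the median window in G and C. The fewest CpG dinucleotides were in the windows of Fgfr2 (2) and Fgfbp1 (3). All windows lie at RefSeq starts. For Fgfr2 (130266808) and Fgf10 (118714699) these are far from the GENCODE starts used for gene positions below (133123350 and 118669791).

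Fgfbp3 (ENSMUSG00000047632.10) is a gene of 2 exons on chromosome 19, from 36917550 to 36919615 on the minus strand of GRCm38, with a single annotated transcript of 1772 bases. It encodes a secreted FGF carrier. Its normalized counts were 276, 218 and 274 across the Col6a1-/- pools and 102, 133 and 141 across the wildtype pools. Every Col6a1-/- pool lay above every wildtype pool, and the lowest Col6a1-/- pool was replicate 2. The mean was 256 ± 33.2 in Col6a1-/- lungs against 125 ± 20.8 in wildtype (SD, n = 3 pools per genotype), a ratio of 2.04 and a log2 fold change of 1.03 (standard error, SE, 0.17). Of all 16879 tested genes, 1.00% had an absolute log2 fold change of at least this size.

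Per kilobase, Fgfbp3 was also the least abundant member. Its values rested on 98 to 344 reads per library, with a counting error of 5.39% to 10.1% of the level, and the SD between pools was 13.0% of the mean in Col6a1-/- and 16.6% in wildtype lungs. Between the pools of like sex makeup, Col6a1-/- replicate 3 (274) and wildtype replicate 3 (141), the ratio was 1.94. Its log2 fold change was 1.00 with the male share as a covariate and 1.00 once the dependence on the length and GC content of transcripts, fitted per library, was taken out. In the fits that left out 1 library it ran from 0.89 to 1.14. Within the Col6a1-/- pools, replicate 2, where Fgfbp3 was lowest, had the lowest red cell sum (62326, against 83154 and 102813) and the highest sums for fat tissue (12942.5, against 7901 and 8932) and airway epithelium. Among these pools it also had the highest sums for alveolar type 1 and type 2 cells, alveolar fibroblasts, mesothelium and cardiac muscle. Its leukocyte sum was the lowest. The part of these tissues in the Fgfbp3 value was not tested. No annotated gene overlapped Fgfbp3. The nearest protein-coding gene, Btaf1, began 6464 bases away on the opposite strand, and its pools overlapped between the genotypes (1871 to 2679 in wildtype, 1920.0 to 2586 in Col6a1-/- lungs).

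By Pearson correlation of log2 values over the 6 libraries, the genes most like Fgfbp3 among 13180 compared were Hmgb3, a chromatin protein (0.99), Clec14a, an endothelial lectin (0.99), and Mettl5, a ribosomal RNA methyltransferase (0.98). In all, 88 genes had a coefficient over 0.95. The 6 libraries share the genotype split by which Fgfbp3 was chosen, and no test goes with these coefficients. Hmgb3 stood at 317 to 339 normalized counts in Col6a1-/- and 231 to 271 in wildtype lungs.

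Fgfbp1 (ENSMUSG00000048373.8, chromosome 5, 43978858 to 43981779, minus strand), the other FGF carrier, had a wide spread in Col6a1-/- lungs (SD 33.2% of the mean). Its normalized counts were 353, 645 and 407 across the Col6a1-/- pools and 309, 389 and 271 across the wildtype pools. Col6a1-/- replicate 1 lay below wildtype replicate 2, so the genotypes overlapped, and Col6a1-/- replicate 2 stood apart from the rest. The mean was 468 ± 155 in Col6a1-/- lungs against 323 ± 59.9 in wildtype (SD, n = 3 pools per genotype), a ratio of 1.45, or 0.50 as log2 (SE 0.21). The log2 value was 0.25 without Col6a1-/- replicate 2. That pool also had the highest summed airway epithelium markers (910825 normalized counts) and the lowest summed leukocyte markers (5561, against 7744 to 8272 in the remaining 5 pools). It also had the highest sums for alveolar type 1 cells, alveolar fibroblasts, mesothelium, fat tissue, cardiac muscle and skeletal muscle, and a male share of 100%. The log2 value of Fgfbp1 was 0.38 with the male share as a covariate. The part of these cell types in the Fgfbp1 value was not tested.

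**Figure D1:**
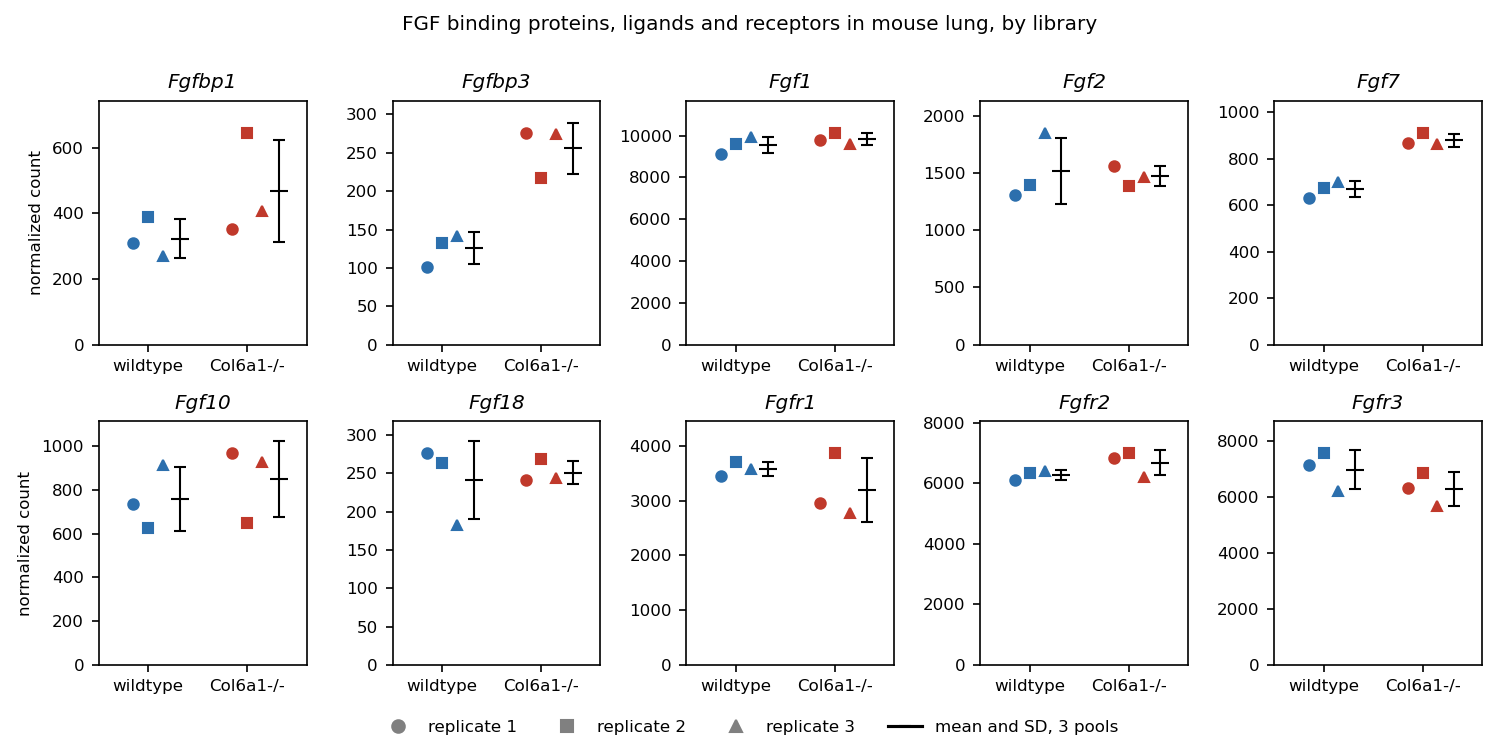
Normalized counts (vertical axes, each from 0) of the 10 FGF system genes in 3 wildtype and 3 Col6a1-/- pools; symbols give the replicate number, and bars give the mean and SD. Fgfbp3 (218 to 276 against 102 to 141) and Fgf7 (862 to 911 against 630.4 to 699) separate by genotype, and the other 8 genes overlap.

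Fgf7 (ENSMUSG00000027208.14, chromosome 2, 126034658 to 126091185, plus strand) was the ligand whose pools separated. Its normalized counts were 865, 911 and 862 across the Col6a1-/- pools and 630.4, 674 and 699 across the wildtype pools. Every Col6a1-/- pool was above every wildtype pool, and the pools of a genotype lay close together. The mean was 879 ± 27.4 in Col6a1-/- lungs against 668 ± 34.7 in wildtype (SD, n = 3 pools per genotype), a ratio of 1.32, or 0.40 as log2 (SE 0.09). It was -0.04 once the length and GC dependence was taken out of each library. The longest Fgf7 transcript had 38.0% G and C, the lowest among the members, against 52.5% in Fgfbp3. Between the pools of like sex makeup (862 against 699) the ratio was 1.23.

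Fgf10 (ENSMUSG00000021732.14, chromosome 13, 118669791 to 118792115, plus strand), the branching factor of the lung bud, overlapped between genotypes. Its normalized counts were 969, 649 and 928 across the Col6a1-/- pools and 735, 626 and 914 across the wildtype pools. Col6a1-/- replicate 2 and wildtype replicate 2 were the low pools, and the other pools of both genotypes lay above them. As log2, the fold change was 0.16 (SE 0.17), with 0.03 without wildtype replicate 2, 0.34 without Col6a1-/- replicate 2 and 0.02 with the trend on length and GC removed. An antisense gene, Gm16263, shared 123 exon bases with Fgf10 and had 13.2 to 31.2 normalized counts.

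Fgf1 (ENSMUSG00000036585.16), the acidic FGF, which binds all the FGF receptors, varied little. Its normalized counts were 9789.6, 10135 and 9601 across the Col6a1-/- pools and 9122, 9598 and 9927 across the wildtype pools. The genotypes overlapped, with an SD between pools of 2.75% of the mean in Col6a1-/- and 4.24% in wildtype lungs. As log2, the fold change was 0.04 (SE 0.08), and -0.05 with the male share as a covariate.

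Fgf2 (ENSMUSG00000037225.13, chromosome 3, 37348346 to 37410108, plus strand), the basic FGF, had 1562, 1388 and 1466 normalized counts across the Col6a1-/- pools and 1312, 1396 and 1853 across the wildtype pools. Wildtype replicate 3 was the highest pool and wildtype replicate 1 the lowest, so the Col6a1-/- range lay within that of wildtype. The log2 fold change of -0.03 (SE 0.13) became 0.12 without wildtype replicate 3. It was -0.29 with the male share as a covariate. Fgf2 shares 640 exon bases with the opposite-strand gene Nudt6, which had 93.9 to 149 normalized counts. The sources used here do not give whether the counting used strand, so reads of this pair within the shared bases cannot be told apart. Fgf2 also shares 255 exon bases with Gm43439 on its own strand, which had 0 normalized counts in every library.

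Fgf18 (ENSMUSG00000057967.12, chromosome 11, 33117430 to 33147400, minus strand), a ligand with a role in alveolar growth, had 241, 268 and 244 normalized counts across the Col6a1-/- pools and 276, 263 and 183 across the wildtype pools. Wildtype replicate 3, the highest pool for Fgf2, was the lowest for Fgf18, and the genotypes overlapped. The log2 fold change of 0.08 (SE 0.17) turned to -0.11 without wildtype replicate 3 and was 0.38 with the male share as a covariate.

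The receptors overlapped between genotypes. Fgfr1 (ENSMUSG00000031565.18, chromosome 8, 25513654 to 25575718, plus strand), broadly expressed in mesenchyme, had 2948, 3866 and 2780.1 normalized counts across the Col6a1-/- pools and 3446, 3702 and 3569 across the wildtype pools. The wildtype pools lay between the Col6a1-/- pools, of which replicate 2 was the highest and replicates 1 and 3 the lowest of all 6. Relative to wildtype, the log2 fold change was -0.17 (SE 0.12), and -0.32 without Col6a1-/- replicate 2. It was -0.41 with the male share as a covariate and -0.02 with the trend on length and GC removed.

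Fgfr2 (ENSMUSG00000030849.18, chromosome 7, 130162451 to 133123350, minus strand), the receptor of Fgf7 and Fgf10 on lung epithelium, had 6839.6, 7002 and 6216 normalized counts across the Col6a1-/- pools and 6105, 6335 and 6417 across the wildtype pools. Col6a1-/- replicate 3 lay within the wildtype range. The log2 fold change came to 0.09 (SE 0.08), 0.20 with the trend on length and GC removed, and -0.02 with the male share as a covariate. The span given here is that of GENCODE. It overlaps many other genes, among them Ate1, Tacc2 and Oat, whereas the RefSeq start of Fgfr2 is at 130266808. The annotated span of Fgfr2 includes exons that share 314 bases with Ctbp2, and the table does not separate the splice forms of Fgfr2.

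Fgfr3 (ENSMUSG00000054252.18, chromosome 5, 33721674 to 33737068, plus strand), a receptor with a role in alveolar septation, had 6318, 6871 and 5675 normalized counts across the Col6a1-/- pools and 7169, 7582 and 6227 across the wildtype pools. The pools of replicate 3 were the lowest in both genotypes, and the ranges overlapped. The log2 fold change came to -0.15 (SE 0.11), and -0.03 with the trend on length and GC removed. Fgfr3 shares 998 exon bases with the opposite-strand gene G630022F23Rik, which had 1.00 to 8.75 normalized counts.

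Read as calls over all genes, no member passed an adjusted p of 0.05 in limma, where 0.0652% of tested genes did (0.0178% higher, 0.0474% lower), or in edgeR on recovered reads, where 0.0770% did. At an unadjusted p under 0.05, 3 of 10 members passed in limma, all higher, against 20.3% of tested genes (9.72% higher). With DESeq2 on recovered reads 2 of 10 members passed at an adjusted p under 0.05, against 5.06% of tested genes. Of the 10 members, Fgfbp3 (log2 fold change 0.78) and Fgf7 (0.36) were the 2 past an adjusted p of 0.05 in the authors' deposited table, where 5.05% of genes with an adjusted p were past it and 1.87% were higher. The pools of 2 of 10 members were all higher than the wildtype pools, against 10.7% of tested genes, and the pools of none were all lower, against 14.2%. The median log2 fold change was 0.08 over the members and 0.0098 over all tested genes. Nothing is read from these counts, because the contrast was known when the members were chosen.

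**Figure D2:**
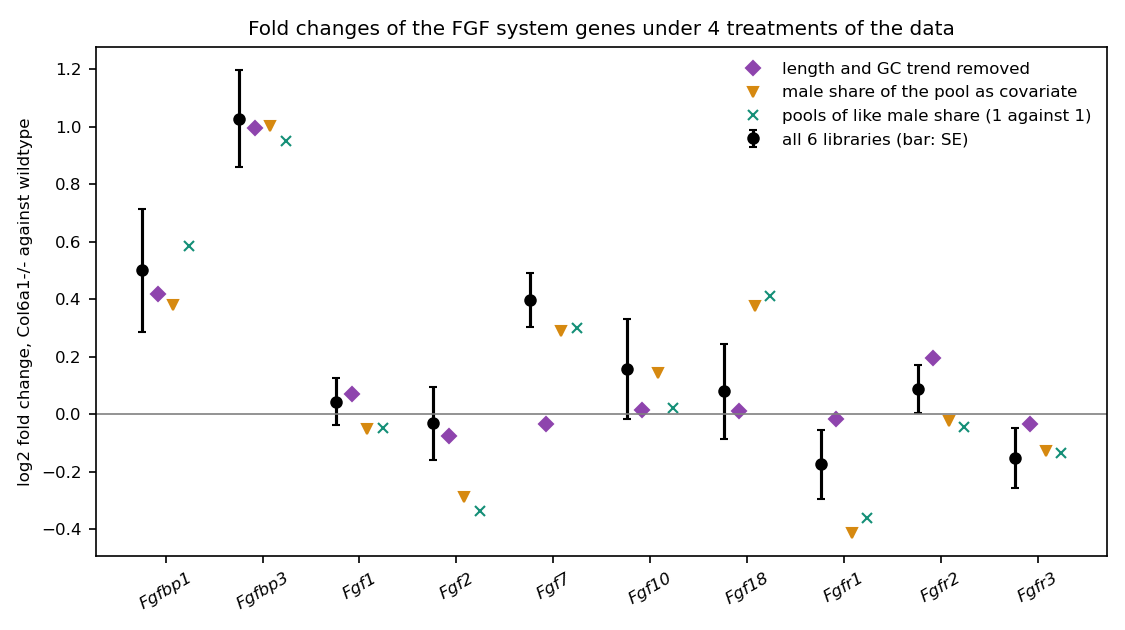
Log2 fold change of each gene, Col6a1-/- against wildtype (vertical axis), from all 6 libraries with its SE, with the length and GC trend taken out, with the male share of the pool as a covariate, and between Col6a1-/- replicate 3 and wildtype replicate 3. Fgfbp3 stays between 0.95 and 1.03, Fgf7 moves from 0.40 to -0.04 without the trend, and Fgfr1 and Fgf2 move to -0.41 and -0.29 with the covariate.

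Levels of different genes were compared per kilobase of the longest transcript. Fgf1 was highest, at 2290.3 to 2544 normalized counts per kilobase over the 6 libraries, with a mean of 2434. Fgfr3 (mean 1564) and Fgfr2 (1464) came next and overlapped each other, and Fgfr1 (672) followed, apart from its neighbours above and below. Fgf7, Fgf2, Fgf18, Fgf10 and Fgfbp1 had means of 289, 250.5, 226, 195 and 181, and neighbours in this order overlapped. Fgfbp3 was last, at 57.4 to 156 with a mean of 108, and its 3 wildtype pools lay below every pool of each other member. So 3 of the 9 neighbouring pairs were separate in all 6 libraries. Places between these depended on the length chosen. Per kilobase of the median protein-coding transcript, Fgfr2 came above Fgfr3 with Fgf2 between them, and Fgfbp1 came above Fgf7, Fgf18 and Fgf10. Over the union of exons, Fgfbp1 and Fgf10 changed places. Fgf1 was first and Fgfbp3 last under each of the 3 lengths tried.

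**Figure D3:**
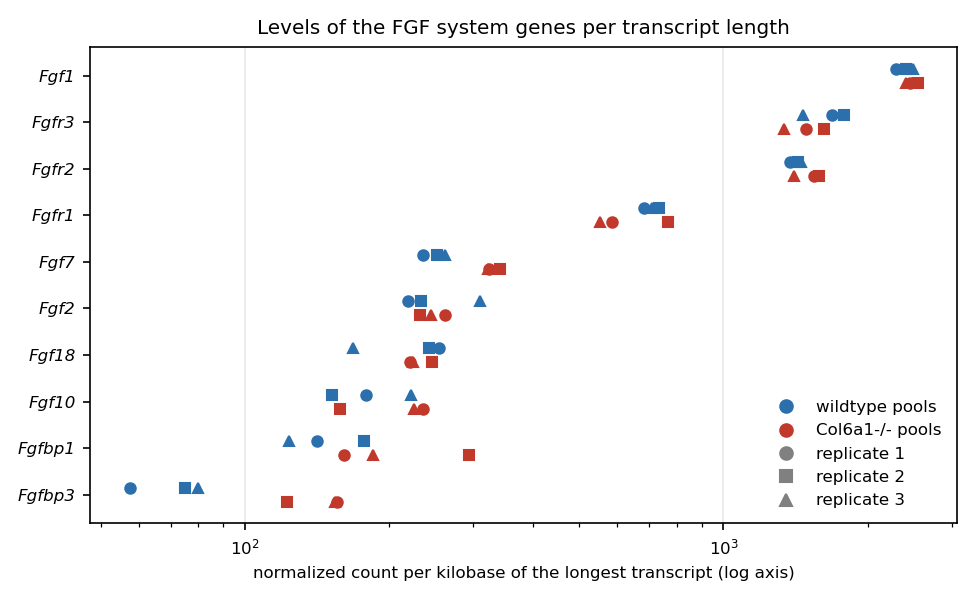
Normalized count per kilobase of the longest transcript (horizontal log axis) for the 10 genes, ordered by their mean; each symbol is 1 pool. Fgf1 lies above the rest at 2290.3 to 2544, the receptors follow, and Fgfbp3 is lowest, with wildtype pools at 57.4 to 79.8.

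Among the 5 ligands, Fgf1 held 70.2% to 73.2% of the summed level per kilobase in each library. The share of Fgf7 was 9.25%, 9.68% and 9.41% across the Col6a1-/- pools and 7.42%, 7.67% and 7.57% across the wildtype pools, with no overlap. Within a library, Fgf1 was 7.46 to 7.59 times Fgf7 per kilobase in Col6a1-/- and 9.53 to 9.71 times in wildtype lungs. These sizes depend on the length used: per kilobase of the median protein-coding transcript, the Fgf7 share was 2.48% to 2.61% in Col6a1-/- against 1.93% to 2.02% in wildtype lungs, and Fgf1 was 29.2 to 29.7 times Fgf7 against 37.2 to 37.9 times. Fgf1 then held 71.7% to 76.0% of the ligand sum and Fgf2 18.4% to 23.7%. The Fgf7 share restates the Fgf7 difference given above. With the trend on length and GC removed, the log2 fold changes were -0.04 for Fgf7 and 0.07 for Fgf1. Shares were not computed with that trend removed. The ratio of Fgf7 to Fgf10, which share a receptor, overlapped, at 1.37 to 2.16 and 1.18 to 1.66. The ratio of Fgfr2 to Fgfr1 was 2.64, 2.06 and 2.54 across the Col6a1-/- pools and 2.02, 1.95 and 2.05 across the wildtype pools, and did not overlap, with Col6a1-/- replicate 2 close to the wildtype pools.

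Most other FGFs were near the limit of the libraries. Of 25 other family genes, 13 did not reach the filter of 10 normalized counts in 3 libraries, among them 11 of 13 further secreted ligands, and the highest value of these 13 in any library was 12.5. The secreted ligands that passed were Fgf9 (mean 17.2), which comes from mesothelium and epithelium in the developing lung, and Fgf16. Fgf16 had 14.9 ± 3.17 normalized counts in Col6a1-/- lungs against 6.92 ± 1.80 in wildtype (SD, n = 3 pools per genotype), without overlap and with a limma adjusted p of 0.177. Fgfr4, the receptor that acts with Fgfr3 in the alveolus, had means of 1575 ± 237 in Col6a1-/- lungs against 1580 ± 135 in wildtype (SD, n = 3 pools per genotype). The pathway lists below were tested over all genes, and they too were drawn up with earlier results of these data known. No gene of the 12 tested family genes passed in limma, with 3 (2 higher, 1 lower) at an unadjusted p under 0.05, which 20.3% of all tested genes reached (9.72% higher, 10.6% lower). Glg1, a Golgi protein that binds FGFs, had 5233 ± 699 normalized counts in Col6a1-/- against 7519 ± 309 in wildtype lungs (SD, n = 3 each), or 69.6% (log2 fold change -0.53, SE 0.11, or -0.34 with the trend on length and GC removed, limma adjusted p 0.0815). Of the 7 family genes with an adjusted p in the authors' deposited table, Glg1 was the 1 lower at under 0.05, against 3.18% of genes. The intracellular Fgf12 was 1.45-fold the wildtype level with a limma adjusted p of 0.177. Its log2 fold change of 0.54 was 0.25 with the male share as a covariate. The pools of like sex makeup had 72.0 normalized counts in Col6a1-/- and 59.1 in wildtype lungs. The adhesion proteins Flrt2 and Flrt3, which bind FGF receptors, had log2 fold changes of 0.19 and 0.02 and limma adjusted p of 0.398 and 0.958, and the Flrt3 value changed sign with median centring (-0.0195).

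Heparan sulfate is the cofactor of FGF binding, and most of its enzymes and core proteins had lower estimates. Of 25 tested genes, 19 were estimated lower (median -0.10 on the log2 scale), and 51.7% of all tested genes had higher estimates. None passed in limma or edgeR, 8 had an unadjusted p under 0.05 in limma (7 lower, against 10.6% of all tested genes), and 4 of 24 were lower at an adjusted p under 0.05 in the authors' deposited table, where 3.18% of genes were. The pools of 8 of 25 genes did not overlap in the lower direction, against 14.2% of tested genes. Ndst1, which adds N-sulfate to the chains, had 14710, 13311 and 11629 normalized counts in Col6a1-/- and 20198, 19197 and 18388 in wildtype lungs. Every Col6a1-/- pool was lower, at 68.6% of wildtype in the mean (log2 fold change -0.55, SE 0.11, limma adjusted p 0.0786). Extl3, a glycosyltransferase of chain initiation, stood at 79.0%, and the core protein genes Hspg2 (perlecan) and Col18a1 at 75.0% and 79.3% of wildtype, with limma adjusted p of 0.0950, 0.101 and 0.103. With the trend on length and GC removed, the log2 fold changes were -0.35 for Ndst1, -0.15 for Extl3, -0.17 for Hspg2 and -0.18 for Col18a1. The sulfatase genes Sulf1 and Sulf2, whose products edit the chains, stood at 86.5% and 84.7% of wildtype (limma adjusted p 0.205 and 0.171), and were chosen for mention after their values were seen. So was Hs6st2, a sulfotransferase, the 1 gene of the list whose pools were all higher, at 1.47-fold the wildtype level (limma adjusted p 0.136). Its log2 fold change of 0.56 was 0.22 with the male share as a covariate. Between the pools of like sex makeup it had 133 normalized counts in Col6a1-/- and 123 in wildtype lungs.

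Of 23 adaptor and MAP kinase cascade genes, 13 were estimated lower and 10 higher (median -0.04 on the log2 scale). None passed in limma or edgeR, and 5 had an unadjusted p under 0.05 in limma, all lower, against 20.3% of all tested genes and 10.6% lower. At an adjusted p under 0.05, 3 of 23 were lower in the authors' deposited table, against 3.18% of genes. These were the adaptor Crkl at 75.9%, the ubiquitin ligase Cbl, which takes down active receptors, at 77.7%, and the phosphatase Ptpn11, which relays the signal from Frs2, at 81.9% of wildtype, with limma adjusted p of 0.0939, 0.119 and 0.115. Their log2 fold changes were -0.40, -0.37 and -0.29, and with the trend on length and GC removed -0.30, -0.20 and -0.09. The phospholipase Plcg1 stood at 85.1% (limma adjusted p 0.177), a log2 fold change of -0.23 that was -0.07 without the trend.

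The feedback inhibitors and targets divided evenly, with 8 of 16 estimated higher and 8 lower (median 0.03 on the log2 scale). None passed in limma, edgeR or the authors' deposited table, and 2 had an unadjusted p under 0.05 in limma, both lower, against 10.6% of all tested genes. These were Ccnd1, cyclin D1, at 84.5%, and Il17rd, the inhibitor Sef, at 86.0% of wildtype, with limma adjusted p of 0.158 and 0.199. With the trend on length and GC removed, their log2 fold changes went from -0.24 and -0.22 to -0.16 and -0.01. Spry4, a Sprouty inhibitor, stood at 86.5% (limma adjusted p 0.291). Spred1, an inhibitor of Raf activation, was 1.25-fold the wildtype level (limma adjusted p 0.296), with 2010.5, 2011 and 3394 normalized counts across the wildtype pools and 3480, 2735 and 3046 across the Col6a1-/- pools. Wildtype replicate 3 lay within the Col6a1-/- range, and the other wildtype pools lay below it. Etv5 and Dusp6, common readouts of FGF signalling that were named after their values were seen, stood at 92.5% and 110.4% of wildtype with overlapping pools (limma adjusted p 0.506 and 0.464).

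**Figure D4:**
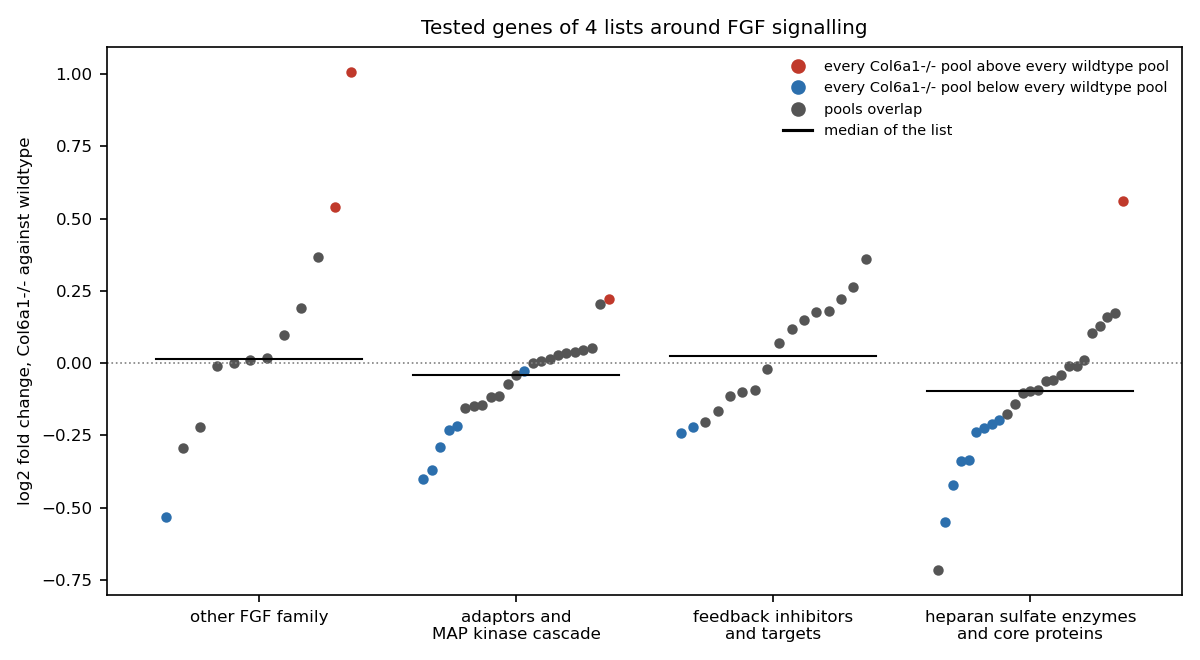
Log2 fold change, Col6a1-/- against wildtype (vertical axis), of the 76 tested genes of 4 lists around FGF signalling, sorted within each list; colours mark genes whose pools do not overlap between genotypes, and bars the list medians. In the heparan sulfate list 8 of 25 genes are lower in every Col6a1-/- pool and 1 is higher, and the medians of the lists run from -0.10 to 0.03.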

How the data were processed

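The authors deposited a signal per gene and library, counts normalized with DESeq2 per the name of the table. The submitters' processing notes name Trimmomatic 0.36, STAR 2.5.2b, Subread 1.5.0p3, featureCounts, R 3.4.1, DESeq2 1.16.1 and GRCm38.p5, without roles. All values (100% per library, to within 1e-06) were whole reads divided by 1 size factor. For Col6a1-/- replicate 3 the factor of 1.0003 is so near 1 that the step is no test of it. The recovered reads served for depth and for count models as alternatives (edgeR 4.0.16, 13 genes called; DESeq2 1.42.0, 742 called). A deposited table of the authors' own genotype comparison gave a mean and a test statistic (each a score here), a log2 fold change, a p-value and its adjusted value.

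The test was limma-trend 3.58.1 (R 4.3.3), two-sided and with genotype as the sole term, on log2 of the normalized count plus 1. It covered 16879 genes that reached 10 normalized counts in 3 or more libraries, with Benjamini-Hochberg adjustment over all of them and a threshold of 0.05. A fold change on this scale is too small for low genes. Labels name separate animals per pool. Replicate numbers follow accession order, and the labels give no pairing of the pools. The header of wildtype replicate 2 carries the added word New, unexplained.

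The members, the gene lists and the alternatives were chosen with earlier results of these data known. Named were all members and, in each pathway list, any called gene or otherwise up to 4 genes of smallest p with a mean of at least 50, the 3 genes most like Fgfbp3, and neighbours. Positions, lengths and GC content (longest transcript) came from GENCODE M21 on GRCm38, matched by symbol for 95.3% of rows. The male share is the mean level of Ddx3y, Eif2s3y, Kdm5d and Uty relative to that in Col6a1-/- replicate 2, where Xist was lowest. The length and GC trend was removed with natural splines of 5 degrees of freedom each. Other alternatives were other pseudocounts, filters and scalings, library weights, a replicate block and leaving out each library.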

Additional observations from a re-analysis of the deposited data

How the results depend on the processing

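Fgfbp3 kept a log2 fold change of 0.89 to 1.14 in all 17 fitted alternatives. Over these and the pair of pools of like sex makeup, 166 of 180 member values moved by no more than 1 SD between pools. Fgf7 and Fgfr2 moved by more in 3 alternatives each. The replicate block and the changed filters leave a member's fold change as it is, so those values could not move. For variable genes the SD is a wide limit. It was 0.37 for Fgfbp1, whose fall from 0.50 to 0.25 without Col6a1-/- replicate 2 was within it. The count of called genes, 11 in limma, was 93 without the filter, 7 with a filter of 50, 26 with median centring, 742 with DESeq2, 3225 with library weights, 81 with the length and GC trend removed and 0 with the male share as a covariate (1306 genes at an unadjusted p under 0.05). It ran from 0 to 1383 in the fits that left out 1 library, with 0 without Col6a1-/- replicate 3 (1979 at an unadjusted p under 0.05) or wildtype replicate 1 (1902), 2 without wildtype replicate 2, 47 without Col6a1-/- replicate 2 and 1383 without wildtype replicate 3. The cause was not tested. Of the 76 pathway genes tested in limma, 0 were called there and in edgeR. DESeq2 called 8 pathway genes, against 742 of 14672 genes over all. Library weights called 16, against 3225 of 16879. The fits that left out 1 library called 0 to 6, with 6 without wildtype replicate 3, against 1383 of 16744 genes over all. Flrt3 changed sign in several alternatives: -0.0195 with median centring, -0.10 with the trend removed, -0.0521 with the male share, and from -0.0857 to 0.159 in the fits that left out 1 library. Flrt2 and Spred1 stood at -0.131 and -0.0474 with the male share as a covariate. The replicate block gave 7 called genes against 11 and no called member or pathway gene. Fgfbp3 was called in 6 of the 17 fitted alternatives, which called 47 to 3225 of all genes. Fgf7 was called in 3 of them, which called 742 to 3225. Nothing is read from these calls, because the contrast was known when the members were chosen. Deviations of same-numbered pools correlated at -0.14, 0.11 and -0.01, and 2 of 6 libraries correlated best with their own number. With 3 pools per genotype, these values cannot tell whether the numbers pair the pools. The ligand shares by length, the length by union of exons and the pools of like sex makeup were added after seeing the data, and with that length 4 of 9 neighbouring pairs were separate.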
